A study of Mus musculus with 38 samples.

Results

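Slc4a1, Ppox and Ftl1 are 3 genes of the red blood cell, of heme and of iron, measured here in mouse spleen after a low dose of X-rays. They were found by RefSeq accession among 21618 distinct probes of the array, of which 6518 had 1 gene symbol, and each had 1 probe. All 3 were among the 14513 probes that could be fitted over all strains. They were selected on their turned values for irradiated against sham mice on these same arrays, so their values in that comparison are a description and carry no test. The question behind the arrays was how the genetic background of a mouse shapes its response to a low dose.

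Irradiated males of 6 inbred strains received 10 rad (10 cGy) of X-rays, control males of the same strains were sham exposed, and spleens were taken 3.5 h later from mice aged 10 to 14 weeks by the labels. A/J, B6.C and Balb/C (BalbxJ in the labels) had 8 arrays each, C3H/HeJ (C3H) had 6, and C57Bl6/J (BI6Jx) and DBA/2J had 4 each. Each array held RNA of 1 irradiated and 1 sham mouse in competition, with the irradiated RNA in the dye Cy5 on 19 arrays and in Cy3 on 19. Every pair of mice was run again with dyes swapped, but the labels do not show which arrays belong together, so the strain was taken as the unit of replication and the spread between arrays of a strain is partly technical.

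The deposited value of a spot is a signed score, and no source used here states its scale, its log base or which dye is on top of the ratio. Each array was centred on its median over probes, and the sign was turned where irradiated RNA carried Cy3. A positive turned value then stands for more signal from irradiated RNA where Cy5 is on top and for less where Cy3 is, so results are given as positive or negative and not as higher or lower expression. A strain value is the mean of the Cy5 and the Cy3 orientation means, and its standard error (SE) rests on the spread of arrays within each orientation. The SE takes the orientations as independent although the same mouse pairs were run in both, so it can be too small. Values exist only as ratios between 2 mice, so the level of a gene in spleen, or of the markers that define spleen cells, could not be read from them. In bulk tissue, fewer cells of a type and less RNA per cell cannot be told apart.

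Arrays differed in reach and spread. Between 10941 and 19860 probes had a value on an array, array medians before centring ran from -3.16 to 3.95, and the SD over probes ran from 0.616 to 2.35. Arrays 50 and 53 of B6.C and array 97 of C57Bl6/J correlated under -0.3 with 3 or more arrays of their own dye orientation, with a lowest r of -0.658 for array 97. The dyes of these arrays are stated in the labels and were kept, and member values are also given with these 3 signs turned.

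Slc4a1 encodes band 3, the chloride and bicarbonate exchanger that also anchors the red cell membrane to its skeleton. Ppox encodes protoporphyrinogen oxidase, the mitochondrial enzyme of the last step but one of heme synthesis. Ftl1 encodes the ferritin light chain, which with the heavy chain forms the shell that stores iron. In the mouse, spleen both makes red cells and clears old ones, and red pulp macrophages recover iron from their heme.

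The 3 genes lay toward the edges of the distribution over probes, in different directions. The mean over 6 strain values was -0.746 ± 1.44 for Slc4a1, 0.687 ± 0.672 for Ppox and -0.684 ± 0.637 for Ftl1 (SD over strains, n = 6 each). By comparison, the middle 90% of the 14513 probes lay between a 5th percentile of -0.348 and a 95th percentile of 0.441, with a median of -0.00675. Of all probes, 0.283% had a lower mean than Slc4a1 and 0.448% a lower mean than Ftl1, whereas 99.1% had a lower mean than Ppox. These places follow from the choice of the genes and say nothing further about them.

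Ftl1 was negative in 6 of 6 strains, Ppox was positive in 5 of 6, and Slc4a1 was divided, with 3 strains on each side. Over all probes 2.80% were negative and 1.47% positive in all 6 strains. The limma fit over strains called 0 of 14513 probes at a Benjamini-Hochberg adjusted p under 0.05 (0.00%), and 1191 (8.21%) had an unadjusted p under 0.05. With arrays not centred it called 31 probes (0.214%).

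**Figure D1:**
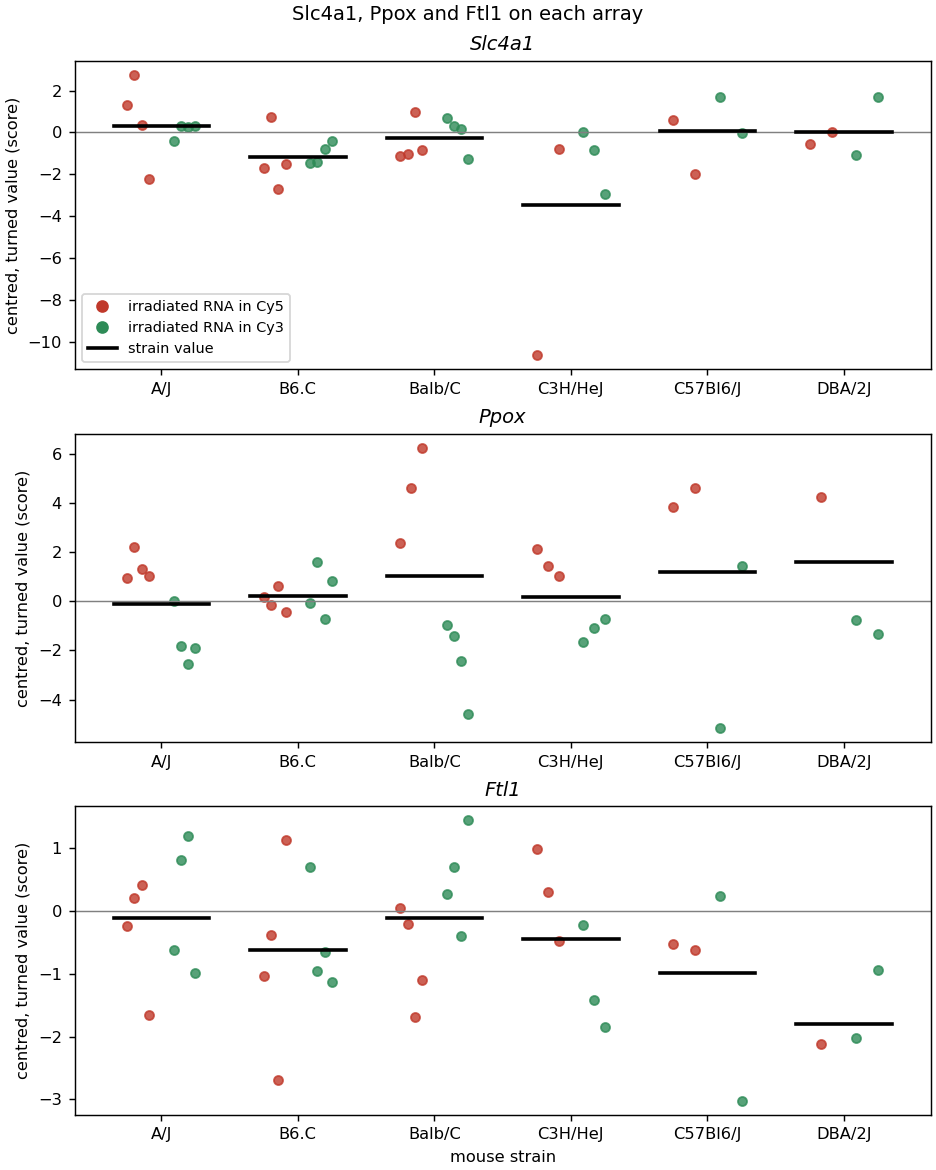
Centred and turned values (score) of Slc4a1, Ppox and Ftl1 by mouse strain, 1 point per array with irradiated RNA in Cy5 (red) or in Cy3 (green), and the strain value as a black line. Slc4a1 has 1 array at -10.7 in C3H/HeJ, Ppox separates by dye in most strains, and the 6 strain values of Ftl1 are all below 0.

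Slc4a1 had a value on 37 arrays, 16 positive and 21 negative, and its spread over strains exceeded that of 99.2% of probes. In C3H/HeJ the values were -10.7 and -0.808 with irradiated RNA in Cy5 (arrays 27 and 29; array 25 had none), and 0.0335, -0.821 and -2.93 with it in Cy3. Array 27 stood alone, more than 7 units below the next lowest array of the strain. The strain value of C3H/HeJ was -3.49 ± 2.50 (SE) with that array and -1.02 without it.

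Values of such size were not rare on array 27. There 135 of 14354 probes lay more than 10 units from 0, and 0.752% of the probes on that array had a lower value than Slc4a1. Among all values of all arrays the share past 10 units was 0.106%, spread over 24 of 38 arrays. Without array 27 the mean of Slc4a1 over strains was -0.336 ± 0.614 (SD, n = 6), inside the 5th percentile of all probes given above, and without array 29 of the same strain it was -1.16.

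B6.C gave the most uniform picture for Slc4a1. With irradiated RNA in Cy5 the arrays stood at -1.72, 0.745, -2.70 and -1.50, and with it in Cy3 at -1.44, -1.40, -0.781 and -0.427. All but the array at 0.745 were negative, in both orientations, and the strain value was -1.15 ± 0.384 (SE). With the signs of arrays 50 and 53 turned it was -0.428, and with these arrays left out -1.05.

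In the other strains Slc4a1 had values on both sides of 0. A/J had 1.32, 2.74, 0.344 and -2.25 with irradiated RNA in Cy5 and -0.394, 0.327, 0.274 and 0.292 with it in Cy3. Balb/C had -1.14, -1.03, 1.0 and -0.851 in the Cy5 orientation and 0.677, 0.306, 0.183 and -1.29 in the Cy3 orientation. The strain values of 0.332 ± 0.533 in A/J and -0.267 ± 0.332 in Balb/C (SE) were both within 1 SE of 0.

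C57Bl6/J had Slc4a1 at 0.599 and -2.0 with irradiated RNA in Cy5 and at 1.72 and -0.00680 with it in Cy3. DBA/2J had -0.531 and 0.0168 in the Cy5 orientation and -1.09 and 1.68 in the Cy3 orientation. Positive and negative arrays nearly cancelled, to strain values of 0.0771 ± 0.780 and 0.0200 ± 0.706 (SE). From low to high the strains ran C3H/HeJ, B6.C, Balb/C, DBA/2J, C57Bl6/J and A/J, and no gap between neighbours exceeded 2 SE, the widest being 2.33 with an SE of 2.53 between C3H/HeJ and B6.C.

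Epb42 and Rhag, of the same membrane complex, did not follow Slc4a1 from array to array. Epb42, protein 4.2, which links band 3 to ankyrin, was negative in 5 of 6 strains with a mean of -0.169 ± 0.256 (SD, n = 6). Rhag, the Rh-associated glycoprotein of the band 3 complex, had a positive mean of 0.401 ± 0.496. It was positive in 3 of 6 strains and had a dye difference of 0.626. Across arrays Slc4a1 had a Pearson r of 0.0487 with Epb42 (37 arrays) and of -0.104 with Rhag (36 arrays), given as a description since these arrays share mice, dyes and depth.

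On array 27, where Slc4a1 was at -10.7, Epb42 stood at -0.260 and Rhag at 1.41. Rhag separated by dye in C3H/HeJ. It was at 1.59, 1.41 and 0.560 with irradiated RNA in Cy5 and at -0.517, -1.61 and -1.79 with it in Cy3. The 17 other red cell membrane genes with a value there had a median of -0.260 on that array, with a range of -5.26 to 1.41. The drop on array 27 was thus larger for Slc4a1 than for any of these 17 genes. Kel, the Kell antigen, had a value of the same size on another C3H/HeJ array, -13.8 on array 25, where Slc4a1 was not measured.

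**Figure D2:**
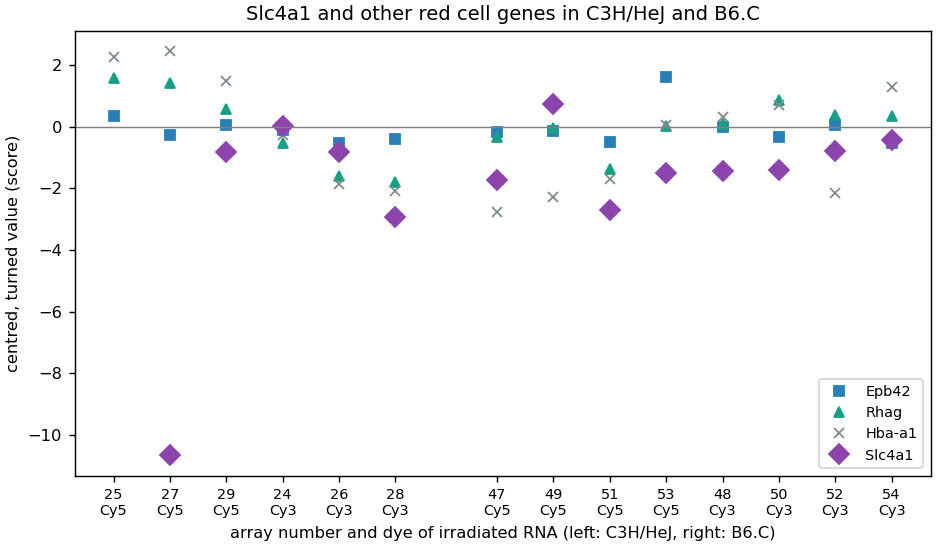
Centred and turned values (score) of Slc4a1 and 3 other red cell genes on each array of C3H/HeJ (left) and B6.C (right), with the array number and the dye of the irradiated RNA on the horizontal axis. Slc4a1 reaches -10.7 on array 27, where Epb42 is at -0.260, Rhag at 1.41 and Hba-a1 at 2.44. In C3H/HeJ, Rhag and Hba-a1 are positive on all Cy5 arrays and negative on all Cy3 arrays.

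Globins are the main protein of the red cell. Of the 3 fitted here only Hba-a1, the adult form, can stand for red cell content in adult spleen. Hba-a1, adult alpha globin, had a mean of -0.260 ± 0.613, Hbb-y, the embryonic beta-like globin, -0.214 ± 0.589, and Hba-x, the embryonic alpha-like globin, -0.184 ± 0.243 (SD, n = 6). All 3 had negative strain values in B6.C, at -0.822, -1.28 and -0.466 in that order. While 7 of 8 Slc4a1 arrays of B6.C were negative, Hba-a1 lay on both sides of 0 there. It was at -2.77, -2.28, -1.71 and 0.0634 in the Cy5 orientation and at 0.323, 0.686, -2.17 and 1.28 in the Cy3 orientation. All 3 globins were also negative in C57Bl6/J, at -0.653, -0.361 and -0.385, where Slc4a1 was at 0.0771. Hba-a1 was lowest in DBA/2J at -0.871, where Slc4a1 was at 0.0200. In C3H/HeJ, where Slc4a1 was lowest, Hba-a1 was at 0.327, and on array 27 it was at 2.44. Hba-a1 separated by dye in that strain. It was at 2.27, 2.44 and 1.48 in the Cy5 orientation and at -0.273, -1.85 and -2.10 in the Cy3 orientation. The part of red cell content in the Slc4a1 values was not tested.

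Slc4a1 was most like Gda, guanine deaminase, Col19a1, a collagen chain, and Btk, the B cell tyrosine kinase, among 3714 named genes with at least 30 arrays in common. The Pearson r was 0.879 for Gda, 0.872 for Col19a1 and 0.861 for Btk. On array 27 these genes were at -9.93, -9.03 and -7.55, and without that array r was 0.678, 0.513 and 0.418. The likeness therefore rested in good part on 1 array.

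Ppox had a value on 36 arrays, 19 positive and 17 negative after turning. Its promoter is shown here with that of Ftl1, whose mean over strains had the opposite sign, though both genes were negative in A/J. The letters are the 250 bases before the annotated start in RefSeq on build GRCm38.p6, at chr1:171281187-171281436 for Ppox and chr7:45459887-45460136 for Ftl1, both on the minus strand and read 5′ to 3′. Capitals mark CCAAT, the box bound by the factor NF-Y, or ATTGG, the same box on the opposite strand. No promoter window was available for Slc4a1, which lies on chromosome 11.
Ppox: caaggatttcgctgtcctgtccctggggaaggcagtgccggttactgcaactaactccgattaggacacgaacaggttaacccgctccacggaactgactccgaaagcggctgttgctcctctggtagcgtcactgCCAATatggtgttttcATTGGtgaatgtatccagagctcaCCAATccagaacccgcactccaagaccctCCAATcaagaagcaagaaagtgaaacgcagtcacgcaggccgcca
Ftl1: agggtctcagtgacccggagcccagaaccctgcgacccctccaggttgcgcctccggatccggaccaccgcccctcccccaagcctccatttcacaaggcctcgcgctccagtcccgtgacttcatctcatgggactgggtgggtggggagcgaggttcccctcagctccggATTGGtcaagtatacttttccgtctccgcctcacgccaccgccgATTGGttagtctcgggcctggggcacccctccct

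The Ppox window held 4 CCAAT boxes over both strands, a number that 0.840% of 32851 promoters reached, and the Ftl1 window held 2, which 10.1% reached. At least 1 box was found in 33.9% of promoters. CACCC, a box common in erythroid promoters, matched 3 times in Ftl1 and not in Ppox. At least 1 match was found in 52.0% of promoters, and 6.92% reached 3. GATAA (in 22.6% of promoters), TATAAA (12.4%) and TGACNNNGC (10.2%), searched on both strands, matched in neither window. No deposited value bears on binding at these letters.

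Ppox separated by dye more than by exposure. In Balb/C the turned values were 2.36, 4.59 and 6.24 with irradiated RNA in Cy5 (array 3 had none) and -0.983, -1.42, -2.43 and -4.6 with it in Cy3. In A/J they were 0.931, 2.21, 1.31 and 1.03 in the Cy5 orientation and 0.0276, -1.83, -2.55 and -1.88 in the Cy3 orientation. In these strains every Cy5 array lay above every Cy3 array, and before turning all but array 45 of A/J were positive, whichever dye held the irradiated RNA.

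C3H/HeJ had the same order, with 2.12, 1.42 and 1.02 in the Cy5 orientation and -1.65, -1.08 and -0.732 in the Cy3 orientation. C57Bl6/J had 3.84 and 4.6 with irradiated RNA in Cy5, against -5.15 and 1.45 with it in Cy3. DBA/2J had 4.24 on its single measured Cy5 array (array 34) and -0.759 and -1.34 on its Cy3 arrays. All these strains had only positive values in the Cy5 orientation.

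B6.C was the exception, with overlapping orientations and small values. Its Cy5 arrays stood at 0.186, -0.142, 0.626 and -0.437, and its Cy3 arrays at -0.0707, 1.58, -0.716 and 0.816. The strain value of Ppox in B6.C was 0.230 ± 0.276 (SE).

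The response value of Ppox is what remains after the orientations are averaged. It was 1.60 in DBA/2J (no SE, 1 Cy5 array), 1.18 ± 1.66 in C57Bl6/J and 1.02 ± 0.692 in Balb/C (SE). It was 0.183 ± 0.209 in C3H/HeJ, 0.230 ± 0.276 in B6.C and -0.0942 ± 0.313 in A/J. The 3 strains above 1 were those with the widest dye separation, and no gap between neighbours in the order that had an SE exceeded 2 SE.

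Single arrays moved the mean of Ppox over strains between 0.411 and 0.962. The lower value came without array 97 and the higher without array 95, the 2 Cy3 arrays of C57Bl6/J, which differed by more than 6 units. With the signs of the 3 opposed arrays turned the mean was 0.518 ± 0.669, C57Bl6/J was at 0.457 and B6.C at -0.0555, so that 4 of 6 strains were positive. With those arrays left out the mean was 0.393 ± 0.767, C57Bl6/J was at -0.467 and 4 of 6 strains stayed positive (SD, n = 6).

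The dye difference, the mean of the orientation means with no sign turned, cancels the exposure where both orientations count alike, and limma fitted it over the 6 strains for all probes. It comes from the arrays on which the genes were selected, and an array far from 0 enters both measures, so its p-values describe the fit and are not independent support. For Ppox it was 1.95 with an SE of 0.446, positive in 5 of 6 strains, at an adjusted p of 0.0825. The strain differences were 3.38 in Balb/C, 3.03 in C57Bl6/J, 2.65 in DBA/2J, 1.46 in A/J, 1.34 in C3H/HeJ and -0.172 in B6.C. Before turning, 30 of 36 arrays were positive for Ppox, and 99.6% of probes had a lower dye difference.

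That fit called 0 of 14513 probes (0.00%), while 3518 (24.2%) had an unadjusted p under 0.05. Without B6.C the dye difference of Ppox was 2.37 at an adjusted p of 0.0179, and without C3H/HeJ it was 2.07 at 0.0463. Without A/J, Balb/C, C57Bl6/J or DBA/2J it did not pass, at limma adjusted p-values of 0.183, 0.259, 0.211 and 0.256 in that order. With arrays not centred it was 2.16 at an adjusted p of 0.953. With arrays as units it was 1.68 at an adjusted p of 0.000118, in a limma fit that counts swaps of the same mice as separate and called 4497 probes (31.0%). With single strains left out it ran from 1.66 to 2.37.

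Slc4a1 had a dye difference of -0.579 with an SE of 0.308, negative in 5 of 6 strains, at an adjusted p of 0.294 in limma. C3H/HeJ, with array 27, stood at -2.25, and without that strain the mean was -0.245, against -0.378 with arrays as units. The dye difference of Ftl1 was -0.0235 with an SE of 0.199 at an adjusted p of 0.952, positive in 2 of 6 strains. Neither passed, and these p-values do not show that the values were 0.

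**Figure D3:**
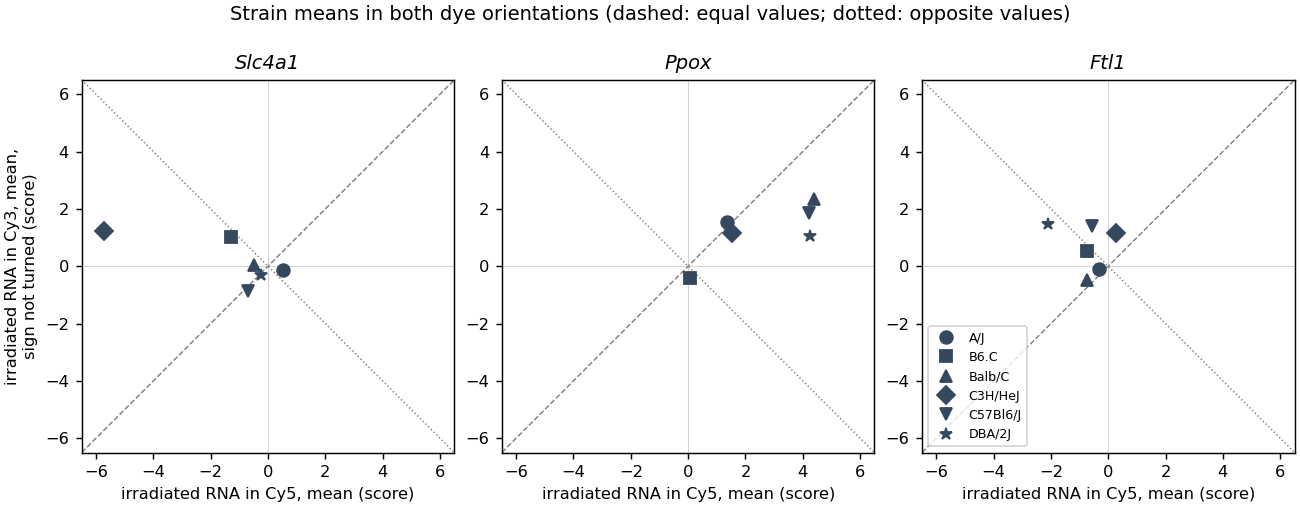
Strain means (score) of Slc4a1, Ppox and Ftl1 with irradiated RNA in Cy5 (horizontal axis) and with it in Cy3 before the sign was turned (vertical axis), 1 symbol per strain. Points on the dashed line have a dye difference and no response, and points on the dotted line the reverse; 5 strains lie in the upper right corner for Ppox.

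The enzymes next to Ppox in heme synthesis had means of the opposite sign. Ppox was selected on its turned values, so a contrast of its mean with theirs follows in part from that choice. Cpox, coproporphyrinogen oxidase, which makes the substrate of Ppox, had a mean of -0.207 ± 0.329 and was positive in 1 of 6 strains. Fech, ferrochelatase, which inserts iron into the product of Ppox, had -0.202 ± 0.314 and was positive in 2 of 6 (SD, n = 6). Across arrays Ppox had an r of -0.504 with Cpox (36 arrays) and of -0.269 with Fech (35 arrays).

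The earlier enzymes, like Cpox and Fech, had means between the 5th and the 95th percentile of all probes given above. Alad, which joins aminolevulinic acid into porphobilinogen, had 0.173 ± 0.137, Uros, uroporphyrinogen synthase, 0.0999 ± 0.213 and Urod, its decarboxylase, -0.0412 ± 0.197 (SD, n = 6). The dye differences of these 5 enzymes lay between -0.248 (Urod) and 0.0793 (Uros), against 1.95 for Ppox.

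Of the mitochondrial transport proteins in the list, some had positive means and some negative. Abcb10, a transporter of the inner mitochondrial membrane needed for heme synthesis in red cell precursors, had a mean of 0.442 ± 0.576 and was positive in 5 of 6 strains. Slc25a37, mitoferrin, which carries iron into mitochondria, had 0.225 ± 0.529 and was positive in 5 of 6 (SD, n = 6). Across arrays their r with Ppox was 0.825 (33 arrays) and 0.754 (35 arrays), and their own dye differences were 0.567 and 0.443. Tspo, the translocator protein of the outer membrane, had -0.0787 ± 0.399 and was positive in 1 of 6 strains.

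The likeness of Abcb10 and Slc25a37 to Ppox did not hold on every array. On array 36 of Balb/C, with irradiated RNA in Cy5, Ppox was at 6.24, Abcb10 at 3.66 and Slc25a37 at 3.16. On array 84 of the same strain, with it in Cy3, they were at -4.6, -1.09 and -1.17. On array 4 of that strain Ppox was at -1.42, with Abcb10 at 0.571 and Slc25a37 at 0.447, and on array 27 of C3H/HeJ Ppox was at 1.42 with Slc25a37 at -0.744.

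Among the named genes most like Ppox, of 3480 compared, was Hspa9, the mitochondrial heat shock protein mortalin, at r = 0.988 over 35 arrays. Its own dye difference was 1.67. Leaving out array 36, the farthest from 0 for Ppox, left r at 0.986, and before the signs were turned r was 0.979.

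Ftl1 had a value on 37 arrays, 13 positive and 24 negative, between -3.02 and 1.43. In DBA/2J, the strain with the lowest value, it was at -2.11 on array 34 with irradiated RNA in Cy5 (array 83 had none) and at -2.02 and -0.944 with it in Cy3. All 3 arrays were negative, and the strain value was -1.80, with no SE because the Cy5 orientation rested on 1 array. The deposited table names the probe by the accession of Ftl1, and ferritin light chain pseudogenes are listed beside it in RefSeq, so a share of signal from near copies is uncertain.

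C57Bl6/J had Ftl1 at -0.534 and -0.631 with irradiated RNA in Cy5 and at 0.235 and -3.02 with it in Cy3. B6.C had -1.03, -0.389, -2.70 and 1.12 in the Cy5 orientation and 0.687, -0.959, -0.655 and -1.13 in the Cy3 orientation. Most arrays of both strains were negative, to strain values of -0.988 ± 0.814 and -0.632 ± 0.445 (SE). Array 97, at -3.02, is one of the opposed arrays, and with the opposed signs turned C57Bl6/J stood at 0.522, so that 5 of 6 strains were negative.

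C3H/HeJ tended to higher values of Ftl1 in the Cy5 orientation, with 0.983, 0.298 and -0.482 with irradiated RNA in Cy5 and -0.236, -1.42 and -1.85 with it in Cy3. Balb/C tended the other way, with 0.0403, -0.213, -1.68 and -1.11 in the Cy5 orientation and 0.265, 0.695, -0.406 and 1.43 in the Cy3 orientation. A/J had -0.248, 0.203, 0.402 and -1.66 in the Cy5 orientation and -0.618, 0.811, 1.19 and -0.997 in the Cy3 orientation. The strain values were -0.452 ± 0.321 in C3H/HeJ, -0.122 ± 0.277 in Balb/C and -0.115 ± 0.354 in A/J (SE), of which the last 2 were within 1 SE of 0.

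Ftl1 thus ran from low to high through DBA/2J, C57Bl6/J, B6.C, C3H/HeJ, Balb/C and A/J. No gap between neighbours that had an SE exceeded 2 SE. With the 3 opposed arrays left out all 6 strains stayed negative at a mean of -0.588 ± 0.659 (SD, n = 6), and C57Bl6/J was at -0.174 without array 97. Leaving out array 6 or 35 of Balb/C, or array 45, 89 or 90 of A/J, turned that strain positive, at 0.107 or less, and left 5 of 6 negative.

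Fth1, the ferritin heavy chain, which oxidises iron as it enters the shell, was the closest partner of Ftl1 among the iron genes examined by role. Its mean was -0.185 ± 0.451 (SD, n = 6), positive in 2 of 6 strains, and its r with Ftl1 was 0.617 over 35 arrays. Array 97 is one of the opposed arrays and was the lowest for both genes, and r without it was not computed. There Fth1 was at -2.54 and Ftl1 at -3.02, and on array 34 they were at -0.959 and -2.11. On array 84 of Balb/C they were at 0.876 and 1.43.

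Other genes of iron release showed lower r with Ftl1. Ncoa4, the receptor that delivers ferritin to the lysosome, had a mean of -0.185 ± 0.306 and an r of 0.193 (37 arrays). Slc40a1, ferroportin, the iron exporter of macrophages, had 0.0614 ± 0.194 and an r of 0.0599 (37 arrays). Hmox1, the inducible heme oxygenase that frees iron from heme, had -0.0925 ± 0.301 and an r of 0.280 (37 arrays; SD, n = 6 strains each).

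The named genes most like Ftl1 were Tyro3, a receptor tyrosine kinase, at r = 0.925, Bcl9l, a cofactor of beta-catenin, at 0.846, and Tgfb2, a transforming growth factor, at 0.837, among 3685 compared. Without array 97 r was 0.908, 0.824 and 0.805. Their means over strains were -0.261, -0.221 and -0.308, each less negative than that of Ftl1.

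Among themselves the 3 genes shared little. Over turned arrays Slc4a1 had an r of -0.132 with Ppox (35 arrays) and of 0.0626 with Ftl1 (36 arrays). Ppox and Ftl1 had an r of -0.363 (36 arrays), and of -0.503 before the signs were turned.

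The wider lists of red cell, heme and iron genes, chosen like the 3 genes with results of these data known, had a median close to that of all probes. Of 114 listed genes 69 were on the array by name and 54 could be fitted, leaving out Slc4a1, Ppox and Ftl1. Their median over strains was -0.0557, with 22 positive and 32 negative means. Over all probes the median was -0.00675, and 48.7% of means were positive. Limma called 0 of the 54 (0.00% of all probes), and 3 (5.56%) had an unadjusted p under 0.05, against 8.21% of all probes.

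**Figure D4:**
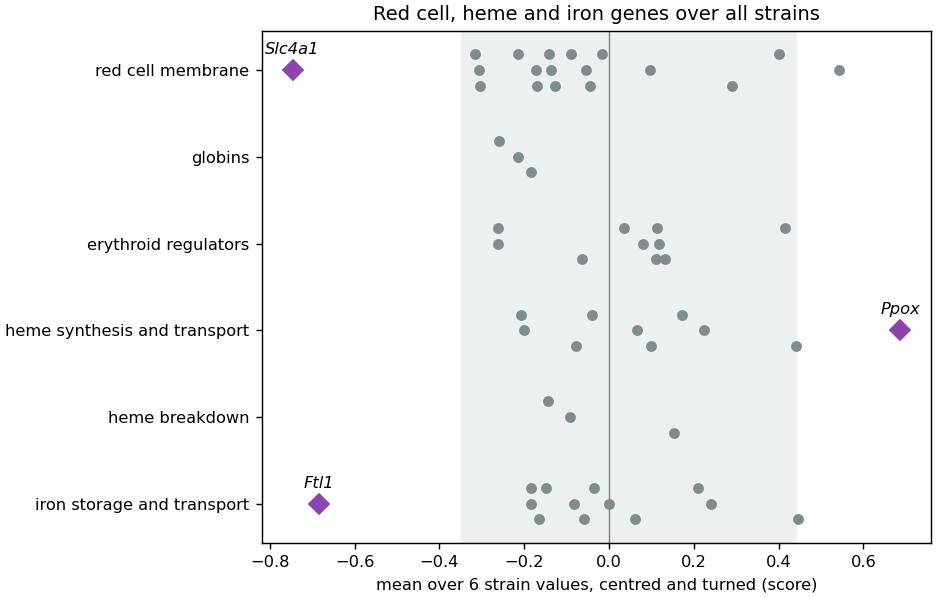
Mean over 6 strain values (score, centred and turned) of each fitted gene in 6 lists, with Slc4a1, Ppox and Ftl1 as purple diamonds, the other genes as grey points, and the range from the 5th to the 95th percentile of all 14513 probes shaded. The 3 genes lie outside the shaded range, between -0.746 and 0.687, and most other genes lie inside it.

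Of 17 red cell membrane genes 4 had a positive mean and 13 a negative one, against 48.7% positive among all probes, with a median of -0.127. Stom, stomatin, an integral protein of the red cell membrane, went the other way, with 0.543 ± 0.570 and positive values in 6 of 6 strains (limma adjusted p of 0.567). Trim10, an erythroid protein needed for late differentiation, had -0.303 ± 0.302, and Add2, beta adducin of the membrane skeleton, -0.307 ± 0.314 (SD, n = 6).

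Of 9 heme synthesis and transport genes 5 had a positive mean, against 48.7% of all probes, with a median of 0.0670 and Abcb10 at the top. Of the 3 heme breakdown genes, Hmox2, the constitutive heme oxygenase, had 0.153 ± 0.304, Lrp1, the receptor that clears heme bound to hemopexin, -0.143 ± 0.261 and Hmox1 the value given above (SD, n = 6). None of them reached an unadjusted p under 0.05.

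Of 12 iron genes 5 had a positive mean, against 48.7% of all probes, with a median of -0.0464. Slc11a1, the metal transporter of phagosomes in macrophages, was highest at 0.446 ± 0.480, positive in 5 of 6 strains, with a limma adjusted p of 0.567 and a dye difference of 0.761. Cp, ceruloplasmin, a ferroxidase, had 0.240 ± 0.322, and Hamp, hepcidin, the hormone that holds back iron export, -0.149 ± 0.294 (SD, n = 6).

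Of 10 erythroid regulators 7 had a positive mean, against 48.7% of all probes, with a median of 0.0951. Tal1, a transcription factor of blood stem cells and red cell precursors, had 0.414 ± 0.450 and a dye difference of 0.537. Gata2, its partner in early precursors, had -0.263 ± 0.232, Lmo2, the bridging protein of their complex, -0.261 ± 0.297 and Bcl11a, the repressor of fetal globin, 0.118 ± 0.218 (SD, n = 6). Limma called none of these, with adjusted p-values of 0.567 for Tal1, Gata2 and Lmo2 and 0.706 for Bcl11a.

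Red pulp macrophage genes, which include those that handle red cell iron, had a median of 0.0724 over 10 genes, with strain medians from -0.180 in A/J to 0.511 in DBA/2J, the strain in which Ftl1 was lowest and Ppox highest. Over the listed genes with a value, DBA/2J had medians of 2.49 and 0.760 on its Cy5 arrays (34 and 83). On its Cy3 arrays (68 and 70) they were -0.0196 and -0.558, so this list separated by dye in that strain. Digestive enzymes and hormones of pancreas, which borders spleen, had negative means in 12 of 14 genes with a median of -0.405. Among all fitted probes, 48.7% had a positive mean. Before adjustment, 6 of the 14 pancreas genes had a limma p under 0.05, a level reached by 8.21% of fitted probes. Limma called 0 of the 14 after adjustment, and this list too was chosen with earlier results known. Strain medians of the pancreas genes ran from -0.850 in Balb/C to 0.0736 in C57Bl6/J.

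T cell genes had positive means in 5 of 6, against 48.7% of all probes, with a median of 0.192. Their strain medians ran from -0.0381 in A/J to 0.498 in DBA/2J. In DBA/2J the listed T cell genes with a value had medians of 1.80 and 0.6935 on Cy5 arrays 34 and 83. On Cy3 arrays 68 and 70 they were 0.0461 and -0.134. The median was 0.0765 over 10 neutrophil genes, -0.0334 over 10 B cell genes and -0.0538 over 5 genes of platelets and megakaryocytes. The part of these cell types in the values of Slc4a1, Ppox and Ftl1 was not tested.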

How the data were processed

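Spleen RNA of irradiated and sham mice was compared on 38 two-colour arrays of a mouse oligonucleotide library. Per the study's methods, poor or dim spots were removed, local background was subtracted and Lowess was applied within arrays. The values the authors deposited are 1 signed score per spot on each array, of a scale, log base, centring and direction that no source used here states. Since log ratios had been foreseen, the scores took their place without change.

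Control spots (864 blank, 275 buffer and 96 Alien) were removed, spots of 1 probe were averaged, and probes were named through RefSeq accessions in a gene table of build GRCm38.p6. A probe entered the fit with 19 or more measured arrays that covered each orientation in each strain. The lmFit and eBayes functions of limma 3.58.1 (R 4.3.3) tested 6 strain values against 0, with Benjamini-Hochberg adjustment over 14513 probes. Where an orientation held 1 array, its value was taken alone. The members, lists and tests were chosen with earlier results of these data known. Named genes are the members, up to 4 genes per list with the smallest p, and the 3 named genes most like each member. Some genes that this rule picks are not reported here. Genes set beside each member by role (Epb42, Rhag, Kel, Uros, Urod, Slc25a37, Fth1 and Slc40a1) were added after their values were seen. Of these, Rhag is also picked by the rule. Tspo was named from its list outside the rule. The number of arrays limits the precision.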

Additional observations from a re-analysis of the deposited data

Results flagged for a closer look

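Slc4a1 on array 27 of C3H/HeJ, with irradiated RNA in Cy5, stood far from the other arrays of that strain, at -10.66 against -2.93 for the nearest. It was the 1 set so marked among 19 examined by Dixon's criterion, which were the arrays of a strain or the 6 strain values of a gene, and chance marks about 1 in 20.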

How the results depend on the processing

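The means of Slc4a1, Ppox and Ftl1 kept their direction when each array or strain was left out and under 6 other settings each. Leaving out arrays moved Slc4a1 between -1.16 (without C3H/HeJ array 29) and -0.336 (without array 27), Ppox between 0.411 and 0.962, and Ftl1 between -0.820 (without C57Bl6/J array 95) and -0.462 (without DBA/2J array 34). Without array 34 DBA/2J has no Cy5 value for Ppox or Ftl1, and the mean is over the other strains. Leaving out strains moved Slc4a1 between -0.962 and -0.198 (without C3H/HeJ), Ppox between 0.505 and 0.843, and Ftl1 between -0.798 and -0.462. The other settings in score units gave -0.769 to -0.618, 0.393 to 0.895 and -0.693 to -0.439. With arrays divided by their SD, in units of that SD, the means were -0.443, 0.305 and -0.584.

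Calls for irradiation numbered 0 in limma, and 31 (0.214%, 30 positive) with arrays not centred, where the median of all probes was 0.121 and 71.2% of probes were positive, against 48.7% after centring. No listed red cell, heme or iron gene was called there or with arrays as units. Dye calls numbered 0, but 4497 with arrays as units, which have more residual degrees of freedom, and 0 to 2057 with a strain left out (1816 without B6.C, 2057 without C3H/HeJ). The dye difference of Ppox passed in the same 3 settings, at 1.68, 2.37 and 2.07, and ran from 1.66 to 2.37 with strains left out. That of Ftl1 changed sign, to 0.156 with arrays not centred, 0.0139 without A/J, 0.0955 without Balb/C and 0.0351 without DBA/2J, and it ranged from -0.172 to 0.0955 with strains left out. With opposed signs turned it was -0.362 and with those arrays left out -0.223. The cause was not tested. No paired analysis was possible because swap arrays of 1 mouse pair are not matched in the labels.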
